A study of Sorghum bicolor with 24 samples.

Results

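The genes described here are 150 sorghum gene models whose RNA was higher in shoots of seedlings given polyethylene glycol (PEG) than in shoots given water, while its ratio stayed under a set limit in the other 3 treatment comparisons of the experiment. They were chosen from 34145 gene models by measured values. RPKM is the number of reads on a gene scaled to its exon length and to the size of the library, and r is the log2 ratio of the group means of RPKM, each with 1 added. A gene was a candidate if r lay between -0.5 and 0.5 for ABA in both tissues and for PEG in roots, and if its lowest PEG-treated shoot library exceeded its highest H2O-treated shoot library. The first condition left 23514 gene models, the second alone held for 5750, and 3286 candidates met both. The 150 candidates with the highest r in PEG-treated shoots are the genes of this report. Their values in those 4 comparisons are therefore a description and not a test. The added 1 RPKM damps ratios of genes with little RNA: with 0.1 added in its place, 100 of the 150 were still candidates.

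The plants were seedlings of line BTx623, 9 days old at harvest, that had grown in nutrient solution and received 1 of 4 additions for 27 h: 20% PEG-8000, H2O as its control, 20 µM abscisic acid (ABA) dissolved in NaOH, or NaOH alone as the control of ABA. Shoots and roots of the same plants were sequenced separately, which gives 8 groups of 3 RNA-Seq libraries. Each replicate number is a separate hydroponic experiment, and each library holds pooled RNA of many seedlings, so the spread between libraries is the spread between experiments and not between plants. The NaOH concentration differs between the sources and enters no comparison. Because whole shoots and whole roots were taken, a change in the share of a cell type cannot be told apart from a change within its cells.

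PEG is a polymer too large to enter cells, and it lowers the water potential around the roots. The shoot does not touch it and meets the stress as a shortage of water and through signals from the root, among which ABA is the best known. ABA closes stomata and switches on many of the genes of drought, including those of dehydrins and other late embryogenesis abundant (LEA) proteins. Genes that answer osmotic stress without ABA are known from other plants as well. The addition of ABA to the same nutrient solution thus asks which part of a PEG response is also seen with the hormone, and the 150 genes are those whose ratio with ABA stayed under the limit of the rule.

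The 24 libraries held 12891722 to 22840499 reads on genes. The 5 genes of C4 photosynthesis that served as shoot markers summed to 8831 to 16039 RPKM in the shoot libraries and to 58.8 to 79.1 RPKM in the root libraries, and none was at 0 in any group. One of the 5, Sb03g003220, went the other way, with 15.1 to 46.0 RPKM in shoots and 37.4 to 48.0 RPKM in roots. Of the 3 genes on the root marker list, none set the tissues apart as a group, since their summed RPKM was 111.5 to 303.2 in shoots and 108.4 to 230.8 in roots. A further 24 genes, taken after the values were seen because each had at least 100 RPKM in every NaOH-treated root library and under 1 in every NaOH-treated shoot library, summed to 1.17, 4.26 and 2.33 RPKM in the H2O-treated shoot libraries and to 5.88, 5.59 and 4.72 RPKM in the PEG-treated ones, against 7724 to 9111 RPKM in PEG-treated roots. The 8 annotated genes of chlorophyll a-b binding proteins summed to 32660 to 33200 RPKM in H2O-treated shoots and to 16760 to 21840 RPKM in PEG-treated shoots. What these markers contribute to the values of the 150 genes was not tested. In ABA-treated shoots they summed to 12320 to 15670 RPKM, against 31550 to 37270 RPKM with NaOH. The median r of the 28329 genes with at least 1 read was 0.07 in PEG-treated shoots and 0.01 in ABA-treated shoots, and in PEG-treated shoots it was 0 after scaling by the trimmed mean of M-values (TMM). After that scaling the 150 genes had r in PEG-treated shoots from 0.57 to 3.15, with a median of 0.76. Their r in ABA-treated shoots then ran from -0.58 to 0.53, beyond the limit of 0.5 at both ends. With RPKM scaled this way 1737 genes were candidates in place of 3286, and 133 of the 150 were among them.

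In RPKM as deposited, r in PEG-treated shoots ran from 0.77 to 3.07 with a median of 0.89. It was at least 2 in 3 genes, at least 1.5 in 11 and at least 1 in 43. In the comparisons that the rule held small, the median r was 0.17 for ABA in shoots, 0.11 for ABA in roots and 0.03 for PEG in roots. The genes just inside the limit were Sb07g005870, Sb03g037190 and Sb02g042510 with r of 0.773, 0.773 and 0.771. The candidates just outside were Sb01g004730, Sb07g023966 and Sb04g011280 with r of 0.771, 0.770 and 0.768, so nothing in the values separates the last genes taken from the first ones left.

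**Figure D1:**
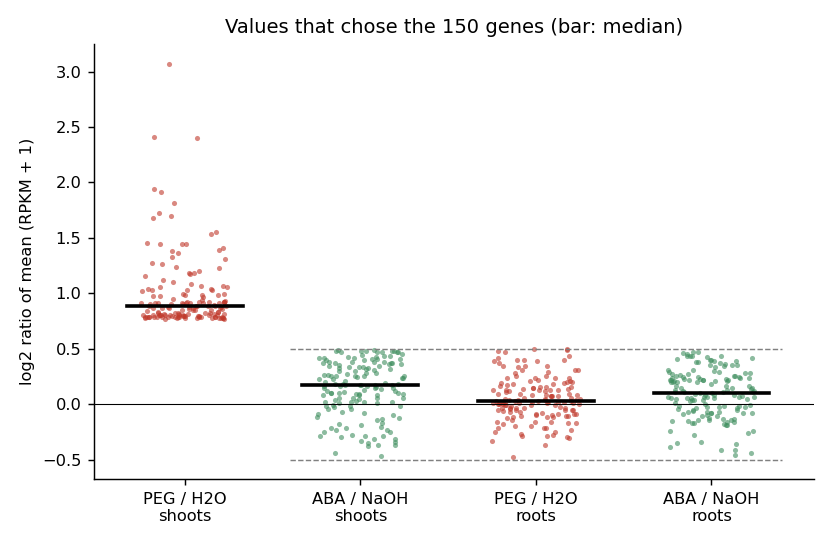
Each point is 1 of the 150 genes, and the vertical axis is the log2 ratio of mean RPKM, with 1 added, of treated to control libraries (3 each); bars are medians and dashed lines mark the limits of -0.5 and 0.5 used to choose the genes. The median is 0.89 in PEG-treated shoots and 0.17, 0.03 and 0.11 in the other comparisons, and 3 genes stand at 2 or above.

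The levels of the 150 genes differed more between shoots and roots than between treatments other than PEG. Their median over the 150 was 2.43, 3.26 and 2.70 RPKM in the H2O-treated shoot libraries of experiments 1, 2 and 3, and 6.96, 7.47 and 7.30 RPKM in the PEG-treated ones. It was 3.14, 3.66 and 2.97 RPKM with NaOH and 3.84, 3.72 and 3.81 RPKM with ABA in shoots. In the 12 root libraries it lay between 7.80 and 9.39 RPKM. The PEG-treated shoots thus stood apart from the other 9 shoot libraries and, in RPKM as deposited, just below the roots. The TMM factors were 0.88 to 0.95 in PEG-treated shoots and 1.17 to 1.27 in roots. Division by these factors raises the former and lowers the latter, so the order against the roots holds only for RPKM as deposited. In H2O-treated shoots 36 of the 150 genes averaged under 1 RPKM and 14 over 20 RPKM.

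**Figure D2:**
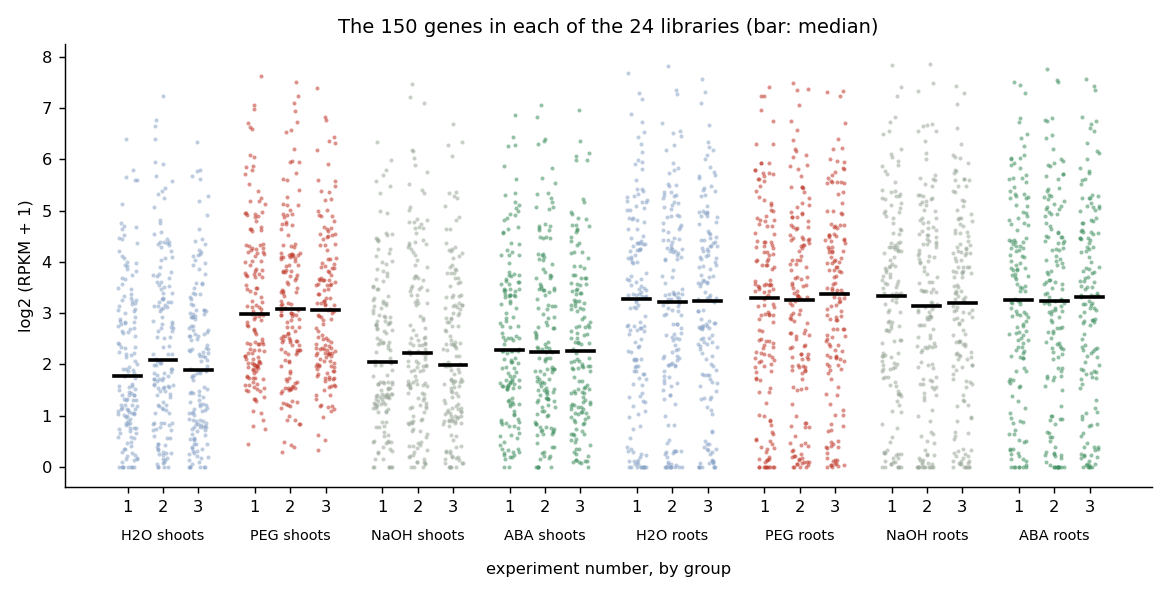
Each point is 1 of the 150 genes in 1 library, on the log2 scale of RPKM with 1 added, and bars are medians. The 3 PEG-treated shoot libraries have medians of 6.96 to 7.47 RPKM, above the other 9 shoot libraries (2.43 to 3.84 RPKM) and under the 12 root libraries (7.80 to 9.39 RPKM). This order against the roots holds for RPKM as deposited and not after division by the TMM factors.

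Experiment 2 stands apart in the control shoots, and it bears on the values below. Its H2O-treated shoot library was the highest of the 3 in 94 of the 150 genes, against 41.4% of all genes with a read, and its NaOH-treated shoot library was the highest in 90, against 32.2%. Both held at once in 70 genes, against 22.1%. Within an experiment, the median difference between PEG-treated and H2O-treated shoots, as log2 of RPKM with 1 added, was 1.08 in experiment 1, 0.71 in experiment 2 and 0.98 in experiment 3. The difference was positive in all 150 genes in each, which the rule fixed in advance. The smallest of the 3 differences came from experiment 2 in 97 genes, against 37.6% of all genes with a read. Libraries of experiment 3 and the NaOH-treated shoot library of experiment 2 were base-called with a later version of the instrument's software than the rest, and the difference of experiment 3, where both libraries had the later version, lay between those of experiments 1 and 2.

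**Figure D3:**
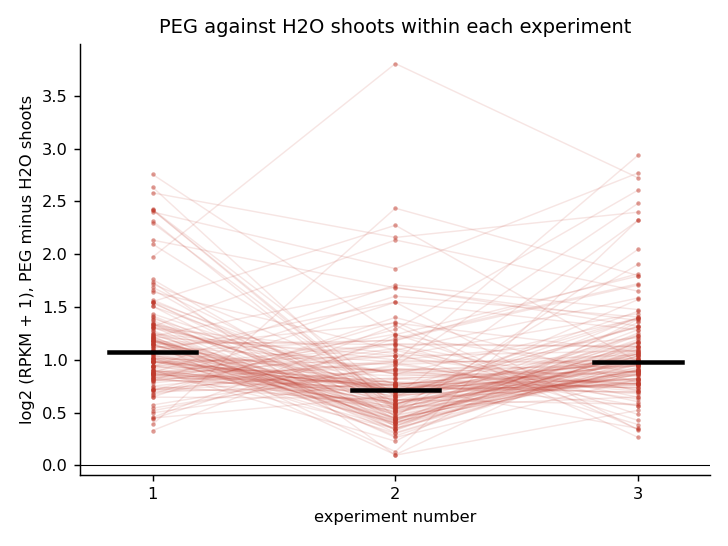
Lines join the 3 values of each of the 150 genes, each value being the difference in log2 of RPKM, with 1 added, between the PEG-treated and H2O-treated shoot libraries of 1 experiment; bars are medians. The medians are 1.08, 0.71 and 0.98, and all values are above 0, which the rule fixed in advance.

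The count test, edgeR's quasi-likelihood test, used reads scaled by TMM, a log2 fold change of 1 or more and an adjusted p below 0.05. It also needed a depth of coverage of the gene of at least 2, as the median of 3 libraries, in 1 of the groups compared. Of the 150 genes, 145 had enough reads to be tested. In PEG-treated shoots it called 44 of the 145 higher and none lower, where 2.73% of all 22667 genes tested were called higher. Without the size limit, 113 of the 145 had an adjusted p under 0.05 and were higher, where 7.68% of all genes were. The median log2 fold change was 0.98 for the 145 and 0.00 for all genes tested, and 4 of the 145 had 3 reads or fewer over the H2O-treated shoot libraries, which left that median unchanged when they were set to their bound. Without the H2O-treated shoot library of experiment 2 the test called 69. Leaving out any 1 library gave 31 to 69 calls, and it called 20 without experiment 1 and 20 without experiment 3. As this contrast chose the genes, these counts describe them and support nothing.

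The same holds for the comparisons held small by the rule. In ABA-treated shoots the edgeR test called none of the 145 genes (7.17% of all genes tested were called in either direction), and 18 had an unadjusted p under 0.05 (33.6% of all). The size limit matters here, since 6 genes were higher and 1 lower at an adjusted p under 0.05, the one with the lowest p being Sb09g001090, with a log2 fold change of 0.41 ± 0.09. In PEG-treated roots 1 gene under the depth minimum, Sb01g030440, had -1.67 ± 0.46. In PEG-treated roots it called none (3.49% of all), and 4 had an unadjusted p under 0.05 (19.4% of all). In ABA-treated roots it called none (13.6% of all), and 19 had an unadjusted p under 0.05 (41.1% of all). Below the size limit, Sb03g000410, Sb07g002670 and Sb03g036970 were higher in ABA-treated roots at an adjusted p under 0.05. Their log2 fold changes were 0.42 ± 0.15, 0.41 ± 0.15 and 0.41 ± 0.15. DESeq2 called none in each of the 3 comparisons. The difference between the PEG effects in shoots and in roots was called higher in shoots in 22 of the 145 genes (2.06% of all) and lower in none. With the experiment number as a block the count was 42, without the H2O-treated shoot library of experiment 2 it was 57, and without that of experiment 3 it was 14. The difference between the PEG and the ABA effects in shoots was called higher with PEG in 15 (1.04% of all) and lower in none. This count was 28 with the block and 27 in DESeq2. It was 51 without the H2O-treated shoot library of experiment 2, 9 without that of experiment 3, and also 9 without the ABA-treated shoot library of experiment 1 or of experiment 3.

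The gene with the highest r was Sb01g018740 (chromosome 1, 19603708 to 19604753, build sbi1, as are all coordinates here), annotated as similar to a protein with a GRAM domain, a fold found in proteins that bind membranes. Its RPKM was 2.93, 15.3 and 6.42 in the PEG-treated shoot libraries and 0, 0.168 and 0.124 in the H2O-treated ones. None of its 21 other libraries exceeded 1.03 RPKM, which was a PEG-treated root library. The PEG-treated shoots are therefore apart from everything else, while their own mean of 8.22 ± 6.39 (SD, n = 3) shows that the level differed widely between experiments.

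Next came 2 genes with r above 2. Sb04g036600, which carries no annotation here, had 7.93, 3.11 and 7.92 RPKM in PEG-treated shoots and 0.692, 0.130 and 0.309 RPKM in H2O-treated shoots, and its NaOH-treated and ABA-treated shoot libraries were all under 0.4 RPKM. Roots had 2.52 to 7.43 RPKM of it in all 12 libraries, so the PEG-treated shoots overlapped the roots, with 2 libraries just above them, and the other shoots lay below. Sb01g012100, annotated only as an expressed protein, had 12, 7.07 and 8.86 RPKM in PEG-treated shoots, and 1.17, 0.808 and 0.872 RPKM in H2O-treated shoots. Its 12 root libraries lay between 0.711 and 2.98 RPKM, and here PEG-treated shoots stood above both tissues.

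Sb01g028760-1 (chromosome 1, 50183023 to 50186127) is annotated as similar to SAPK3, a serine/threonine protein kinase of the SnRK2 family, whose rice members are switched on by hyperosmotic stress and some of them by ABA as well. It had 18.2, 10.9 and 15.6 RPKM in PEG-treated shoots and 1.84, 4.03 and 3.77 RPKM in H2O-treated shoots, without overlap. The NaOH-treated and ABA-treated shoots, at 2.92 to 4.41 RPKM, were at the level of the H2O-treated ones. Roots held far more of its RNA, with 48.5 to 67.2 RPKM over the 12 libraries, and PEG-treated roots, at 59.8, 67.2 and 62.0 RPKM, lay above the H2O-treated roots at 55, 52.6 and 52.8 RPKM. The root difference is inside the limit of the rule.

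Sb01g012700 (chromosome 1, 11690231 to 11691169) is annotated as similar to osmotin, a thaumatin-like defense protein first found in salt-adapted tobacco cells. In PEG-treated shoots its RPKM was 0.668, 7.19 and 3.47, and in H2O-treated shoots 0.274, 0.515 and 0.286. The groups do not overlap, yet experiment 1 was hardly above the controls and below the ABA-treated shoots, which had 1.13, 1.25 and 0.789 RPKM. No root library exceeded 0.580 RPKM.

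The transcription factors among the annotated genes were 2. Sb02g020760 (chromosome 2, 50524731 to 50526933), similar to a bZIP factor, a family with a basic DNA-binding region and a leucine zipper, was among the most abundant of the 150. It had 104, 105 and 81.1 RPKM in PEG-treated shoots against 47.3, 40.6 and 38 RPKM in H2O-treated shoots, while NaOH-treated and ABA-treated shoots had 30.3 to 45.6 RPKM. PEG-treated shoots were thus above all other shoot libraries. In RPKM as deposited they were near the level of the roots, which had 84.7 to 134 RPKM. Sb01g036870 (chromosome 1, 60434864 to 60436282), with a WRKY DNA-binding domain, had 3.85, 4.39 and 3.91 RPKM in PEG-treated shoots and 1.32, 1.92 and 1.88 RPKM in H2O-treated shoots. ABA-treated shoots had 3.33, 2.22 and 2.82 RPKM, between those groups on average, and roots had 22.3 to 46.2 RPKM. Against their own NaOH control the ABA-treated shoots differed by a log2 fold change of 0.10 ± 0.23 (SE, edgeR). NaOH-treated shoots differed from H2O-treated shoots by 0.52 ± 0.24, and neither difference was called.

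Auxin genes were also 2. Sb02g038170 (chromosome 2, 72450491 to 72452907) is similar to GH3.8, an enzyme that in rice joins the auxin indole-3-acetic acid to amino acids and so lowers free auxin. It had 3.05, 1.98 and 2.54 RPKM in PEG-treated shoots, and 0.277, 1.30 and 0.484 RPKM in H2O-treated shoots. Sb03g003200 (chromosome 3, 3321911 to 3323575) is similar to IAA2, one of the Aux/IAA repressors that auxin removes, and had 2.87, 5 and 2.91 RPKM against 1.47, 1.27 and 1.27 RPKM. Its NaOH-treated shoot library of experiment 2, at 3.32 RPKM, was above 2 of the 3 PEG-treated ones. Both auxin genes had more RNA in roots, at 3.90 to 8.35 RPKM for Sb02g038170 and 7.90 to 13 RPKM for Sb03g003200.

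**Figure D4:**
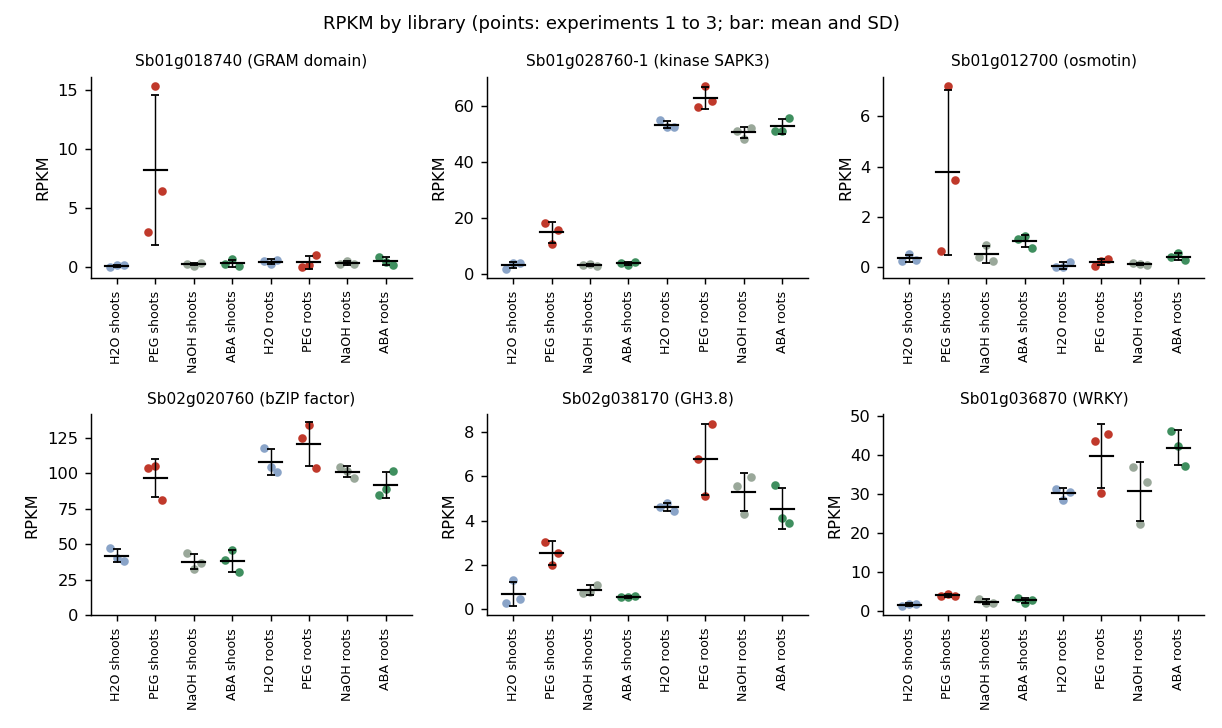
Points are the RPKM of single libraries, in the order of experiments 1 to 3 within each of the 8 groups, for 6 annotated genes, and bars are means with SD (n = 3). The means of the GRAM domain gene and osmotin are highest in PEG-treated shoots, with large spread and, for osmotin, 1 library below the ABA-treated shoots, whereas the kinase SAPK3, the WRKY gene and GH3.8 have their highest levels in roots.

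Other annotated genes touch the cell wall, phenylpropanoids, carbon and DNA. Sb01g003120, similar to expansin-A7, a protein that loosens cell walls, had 13.6, 19.1 and 13.2 RPKM in PEG-treated shoots and 1.97, 12.5 and 5.06 RPKM in H2O-treated shoots, so experiment 2 of the control came close to the treated libraries. Sb02g001050, weakly similar to 4-coumarate-CoA ligase, which feeds the making of lignin and flavonoids, had 2.32, 3.20 and 2.35 RPKM against 1.07, 0.639 and 1.65 RPKM. Sb03g029190-1, similar to a chloroplast carbonic anhydrase, which interconverts carbon dioxide and bicarbonate, had 17.2, 19.3 and 17.9 RPKM against 9.06, 8.88 and 7.92 RPKM. Roots had more of it, at 33.5 to 64.7 RPKM, whereas the C4 marker gene Sb03g029170-1 on the same chromosome had 209.6 to 1449 RPKM in shoots and 9.75 to 28.3 RPKM in roots. That marker gene had 812.5, 1406 and 953.4 RPKM in PEG-treated shoots and 218.8, 261.0 and 211.5 RPKM in H2O-treated shoots. Its highest value, 1449 RPKM, came from the NaOH-treated shoot library of experiment 2. What its reads contribute to the values of Sb03g029190-1 was not tested. Reads that the authors could not place uniquely were left out, so the split between such related copies is uncertain. Sb01g038780, similar to Spo11, the topoisomerase-like protein that cuts DNA in meiosis, had 3.69, 4.70 and 3.4 RPKM in PEG-treated shoots and 1.03, 3.09 and 1.35 RPKM in H2O-treated shoots. Sb01g027765, a pentatricopeptide protein of a family that binds organelle RNA, had 3.79, 3.24 and 2.77 RPKM against 1.19, 1.15 and 0.898 RPKM. Sb01g008710, of the phosphatidylinositol 3- and 4-kinase family, which phosphorylates membrane lipids and fell in the kinase class by its name, had 4.26, 3.94 and 3.04 RPKM against 1.47, 2.03 and 1.30 RPKM.

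Annotation text was available for 36 of the 150 genes, all on chromosomes 1 to 3, where 79 of them lie, and 17 of the 36 were described only as uncharacterized, predicted or expressed proteins. The text comes from the study's own lists of responsive genes, and these were held here only in part, so the annotated genes are no random share of the 150. Of 25 keyword classes, 8 held a member and 17 held none. Among the classes without a member were 9 annotated genes for LEA proteins and dehydrins, all 9 of which the test called higher in PEG-treated shoots, and 24 for chaperones and heat shock proteins, of which 12 were called higher and none lower. The class of ABA genes had 10 annotated genes tested, with 4 called higher and 1 lower, and no member. Only 36 members stood beside 3991 annotated genes tested, so classes this small would hold few or no members at that share. Their lack of a member is therefore not read as a result. The class counts are to be read against all 3991 annotated genes tested, of which 12.9% were called higher and 6.84% lower. Of the 253 annotated transcription factors tested, 31 were called higher and 13 lower in PEG-treated shoots, and of 22 auxin genes 3 were called higher and 3 lower.

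In the list of quantitative PCR primers used here, 1 of the 150 genes was found, Sb06g026270 (chromosome 6, 55330424 to 55333025, exon length 480 bases), which has no annotation here. Its primers are shown because they are the sequences by which this gene can be assayed, and they are written 5′ to 3′ in lower case.
Sb06g026270 forward primer: aggattttgcttatgatgtctttg
Sb06g026270 reverse primer: ctacacgagtgaaggatacctcttg
The gene had 4.39, 4.41 and 2.94 RPKM in PEG-treated shoots and 1.74, 1.64 and 1.4 RPKM in H2O-treated shoots. Its ABA-treated shoots, at 3.39, 2.68 and 1.89 RPKM, overlapped the PEG-treated ones, as did its 12 root libraries at 2.20 to 4.04 RPKM. Those ABA-treated shoots differed from their own NaOH control by a log2 fold change of 0.05 ± 0.26 (SE, edgeR). NaOH-treated shoots differed from H2O-treated shoots by 0.59 ± 0.27, and neither difference was called.

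The rule did not use the contrast of NaOH-treated shoots with NaOH-treated roots, but it is not fully independent of the choice. Both groups are the controls of the ABA ratios that the rule held small, and the NaOH-treated shoots deviated together with the H2O-treated shoots of the same experiment, with correlations of 0.58, 0.56 and 0.28. Of the 145 genes tested, 32 were called lower in NaOH-treated shoots than in NaOH-treated roots, where 17.4% of all genes tested were, and 9 were called higher in shoots, where 18.3% of all were. The 32 are 22.1% of the 145 and the 9 are 6.21%. The median log2 difference was -0.36 for the 145 and -0.11 for all genes, and that of the 145 was the same with the 11 genes that had 3 reads or fewer over a group set to their bound. Among the 2928 other candidates tested, which met the same conditions with a smaller r, the median was -0.14, with 5.57% called lower and 3.04% called higher in shoots. On RPKM as deposited, every NaOH-treated root library exceeded every NaOH-treated shoot library in 98 of the 145 (58.7% of all genes tested) and the reverse held in 16 (20.0% of all). The RPKM of most genes is higher in roots, and the test, being scaled by TMM, carries less of that shift (its median over all genes was -0.11). All 32 genes called lower in shoots had lower RPKM in shoots in each of the 3 experiments, and 8 of the 9 called higher had higher RPKM in each. Leaving out any 1 library gave 39 to 48 calls in place of 41.

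**Figure D5:**
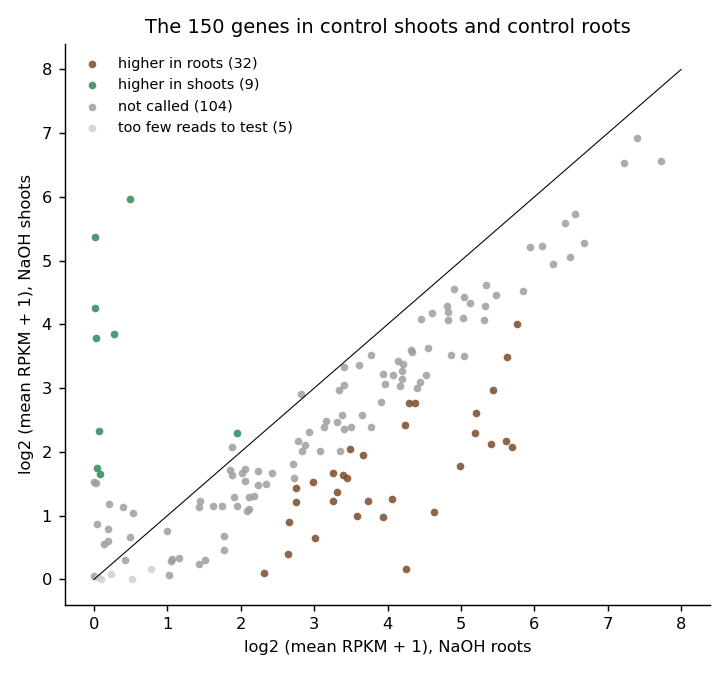
Each point is 1 of the 150 genes, placed by the mean of 3 NaOH-treated root libraries (horizontal) and 3 NaOH-treated shoot libraries (vertical), both as log2 of mean RPKM with 1 added, and the line marks equal levels. Brown points are the 32 genes that edgeR called higher in roots, green points the 9 called higher in shoots, and grey points were not called or had too few reads.

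The root side of this comparison was led by Sb02g034710, a short model of 372 exon bases with no annotation, which had 17.8, 17.1 and 19.4 RPKM in NaOH-treated roots and 0, 0.227 and 0.123 RPKM in NaOH-treated shoots (adjusted p = 1.7e-10, by the edgeR quasi-likelihood test with Benjamini-Hochberg adjustment, as for all adjusted p here). Its 1.07, 0.316 and 1.30 RPKM in PEG-treated shoots were still a small part of the root level. Sb05g001580, also unannotated, differed by -5.28 ± 0.45 on the log2 scale (SE, adjusted p = 1.7e-09), with 3.65 to 4.36 RPKM in NaOH-treated roots and at most 0.107 RPKM in NaOH-treated shoots, and it reached 2.34, 1.27 and 2.00 RPKM in PEG-treated shoots. Sb01g049030, similar to an oxidoreductase of the 2-oxoglutarate and iron-dependent oxygenases, a large family active in hormone and secondary metabolism, differed by -3.89 ± 0.34 (adjusted p = 2.9e-09). The kinase gene Sb01g028760-1 differed by -3.34 ± 0.20 (adjusted p = 8.0e-12), Sb04g036600 by -3.46 ± 0.53 (adjusted p = 8.9e-06) and the WRKY gene Sb01g036870 by -3.06 ± 0.22 (adjusted p = 1.3e-10). Of the auxin genes, Sb02g038170 differed by -1.96 ± 0.32 (adjusted p = 2.2e-05) and Sb03g003200 by -1.53 ± 0.28 (adjusted p = 7.5e-05). The bZIP gene Sb02g020760, at -0.79 ± 0.16 (adjusted p = 0.00019), was lower in shoots by less than the size limit. The carbonic anhydrase gene Sb03g029190-1 was called lower in shoots, by -1.61 ± 0.23 (adjusted p = 3.0e-06).

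The shoot side included genes with almost no RNA in roots. Sb07g000500 had 39.9, 41.4 and 40.3 RPKM in NaOH-treated shoots against 0, 0 and 0.0384 RPKM in NaOH-treated roots (adjusted p = 5.7e-14), and PEG-treated shoots had 56.9, 94.7 and 78.8 RPKM where H2O-treated shoots had 34.2, 50.2 and 48.0 RPKM. Sb05g026910 had 12.3, 24.5 and 17.7 RPKM in NaOH-treated shoots and at most 0.0342 RPKM in NaOH-treated roots (adjusted p = 9.9e-11). Sb07g005420 had 6.71, 20.5 and 11.2 RPKM against at most 0.0503 RPKM (adjusted p = 3.4e-09). Sb04g037130 had 46.5, 71.0 and 66.2 RPKM against 0.408, 0.173 and 0.614 RPKM (adjusted p = 2.5e-11). None of these 4 is annotated here. For the last 3 the H2O-treated shoots differed widely between experiments, and for Sb04g037130 the H2O-treated shoot libraries ran from 17.6 RPKM in experiment 1 to 83.1 RPKM in experiment 2, next to 86.2 to 122 RPKM with PEG. Sb01g032300, an uncharacterized protein, was steadier, with 6.36, 6.77 and 7.33 RPKM in PEG-treated shoots, 0.677 to 2.72 RPKM in the 9 other shoot libraries and at most 0.0724 RPKM in roots (adjusted p = 5.8e-09 between NaOH-treated shoots and roots). Sb01g050070, of glycosyl hydrolase family 16, which includes enzymes that cut and join wall xyloglucan, had 1.63, 2.07 and 2.76 RPKM in NaOH-treated shoots and at most 0.0929 RPKM in any root library (adjusted p = 6.1e-09). Sb01g032560, also called higher in NaOH-treated shoots than in NaOH-treated roots, differed by only 1.06 ± 0.34 on the log2 scale (adjusted p = 0.01).

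Of the 20 genes with the highest r, 7 more without annotation are described here, with Sb02g031230. Sb06g023160 had 4.37, 0.887 and 3.99 RPKM in PEG-treated shoots and 0, 0.196 and 0 RPKM in H2O-treated shoots, with 0.378 to 1.31 RPKM in roots. Sb06g031480 was as uneven, with 1.57, 0.216 and 4 RPKM against 0.118, 0.111 and 0 RPKM. In both the PEG-treated library of experiment 2 was the lowest of the 3. Sb06g019520 had 15, 16.5 and 28.7 RPKM in PEG-treated shoots, while the 9 other shoot libraries had 2.29 to 8.77 RPKM and roots 4.79 to 7.81 RPKM, so its PEG-treated shoots were above all else. Sb06g027430, at 1.43, 1.79 and 2.88 RPKM, was above the other shoots, which had at most 0.534 RPKM, and overlapped the roots. Sb08g022410 had 4.31, 8.01 and 4.54 RPKM with PEG and at most 3.8 RPKM in other shoots, and Sb03g040280 had 2.65, 9.07 and 4.01 RPKM with PEG and at most 2.32 RPKM in other shoots. Roots had at most 0.0965 RPKM of the former and 0.748 RPKM of the latter. Sb06g028090, with 10.1, 5.67 and 10.9 RPKM with PEG, overlapped both the ABA-treated shoots and the roots. The uncharacterized Sb02g031230 had 4.61, 2.66 and 5.32 RPKM with PEG and 0.127, 1.67 and 0.53 RPKM with H2O.

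By level alone 69 of the 150 fall into 4 kinds, which were set after the values were seen, and 81 fall into none of them. With 1 RPKM added the rule passes over genes with little RNA, and the lowest mean of the 150 in PEG-treated shoots was 0.90 RPKM. All genes with a read are held to no such floor. The shares below thus compare unlike sets and are not read as results. In 11 of the 150 genes all 7 groups other than PEG-treated shoots averaged under 1 RPKM, a smaller share than the 22.3% of all genes with a read. Besides the GRAM domain gene they include Sb10g017780, which had 1.93, 3.84 and 0.973 RPKM in PEG-treated shoots, no read in any H2O-treated library of either tissue, and 0.227, 0.707 and 0.199 RPKM in ABA-treated shoots. In 12 genes, against 4.44% of all, H2O-treated shoots averaged at least 1 RPKM and all root groups less than 1. In 19 genes, against 8.15%, H2O-treated shoots averaged under 1 RPKM and all root groups at least 1. Sb03g032030 is among these, with 3.86, 7 and 5.54 RPKM in PEG-treated shoots, 0.955, 0.822 and 1.08 RPKM in H2O-treated shoots and 11 to 20.8 RPKM in roots, and its tissue difference was -3.22 ± 0.23 (adjusted p = 1.2e-10). In 27 of the 150 genes H2O-treated shoots and all root groups averaged at least 10 RPKM, a smaller share than the 22.9% of all. The lowest PEG-treated shoot library was above all 21 other libraries in 21 of the 150 genes, against 0.625% of all, and the rule itself favors such genes.

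Among the 27 abundant genes the control shoots of experiment 2 were also often the highest. In 20 of the 27 its library was the highest in both H2O-treated and NaOH-treated shoots, against 70 of all 150. The share among all genes this abundant was not computed. The most abundant of the 150, Sb02g017910-1, had 83.8, 149 and 80.3 RPKM in H2O-treated shoots, 80.5, 177 and 103 RPKM in NaOH-treated shoots and 197, 181 and 166 RPKM in PEG-treated shoots. Sb01g047920 had 54.8, 99.8 and 53.7 RPKM with H2O, 62.9, 136 and 76.9 RPKM with NaOH and 126, 150 and 113 RPKM with PEG. Sb04g037640 had 49.2, 108 and 50.1 RPKM with H2O, 50.6, 149 and 80.0 RPKM with NaOH and 132, 136 and 108 RPKM with PEG. In these 3 the NaOH-treated shoots of experiment 2 overlap the PEG-treated shoots, and roots had 150 to 215, 134 to 183 and 158 to 231 RPKM of them. None of the 3 is annotated. Sb03g014380 had 26.2, 58.8 and 29.4 RPKM with H2O, 30.9, 71.5 and 39.6 RPKM with NaOH and 66.8, 73.2 and 59.6 RPKM with PEG. Of the annotated genes, Sb01g035410-1, similar to an SAR DNA-binding protein, was also highest in experiment 2, with 20.9, 38.9 and 16.9 RPKM with H2O, 20.7, 44.9 and 24.0 RPKM with NaOH and 54.2, 61.2 and 43.5 RPKM with PEG. Sb03g011060, similar to TOM40, the channel through which proteins enter mitochondria, is less abundant and not among the 27. It had 8.59, 11.2 and 6.90 RPKM with H2O, 9.15, 14.3 and 7.56 RPKM with NaOH, and 18.3, 19.0 and 15.9 RPKM with PEG.

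The NaOH-treated shoots serve as a second control, though PEG-treated shoots were used to choose the genes. The NaOH side is not independent of the choice either. These shoots are the controls of the ABA ratio that the rule held small, and they deviated together with the H2O-treated shoots of the same experiment. In 115 of the 145 genes tested every PEG-treated shoot library exceeded every NaOH-treated one, where 30.7% of all genes tested did. In the 2928 other candidates tested the share was 75.4%, and it was 79.3% in the 145. The mean RPKM of NaOH-treated shoots was at least that of H2O-treated shoots in 122 of the 150 genes (50.0% of all genes with a read), and this comparison shares its H2O-treated libraries with the rule. In the edgeR test of NaOH-treated against H2O-treated shoots none of the 145 was called (0.0% of all genes tested), 12 had an unadjusted p under 0.05 (2.5% of all), and DESeq2 called none. The median log2 fold change was 0.27 for the 145 and 0.01 for all genes. In roots none was called (0.0% of all) and none had an unadjusted p under 0.05 (1.59% of all), DESeq2 called none of the 145, and the medians were 0.04 and 0.00.

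The gene models themselves were close to the rest in length, with a median of 1356 exon bases (153 to 5860) against 1310 for all genes with a read. Among the 150, 72 models were marked full length, against 36.0% of all, and 44 were marked unknown, against 48.4%. A further 26 were marked complete at the 3′ end, against 12.1%, and 8 at the 5′ end, against 3.55%. They lay on all 10 chromosomes, most on chromosome 1 with 30, where 17.4% of all genes with a read lie. In 5 pairs there were at most 5 other models between the genes, and how many such pairs other genes would give was not computed. Sb04g029150 and Sb04g029160 (chromosome 4, 59167175 to 59170253 and 59170573 to 59172886) are 320 bases apart, and since strand was not recorded, reads of one running into the other could not be told apart. The first had 12.1, 14.3 and 10.7 RPKM in PEG-treated shoots against 5.18, 10.4 and 4.61 RPKM in H2O-treated shoots, and the second 44.6, 33.8 and 31.3 RPKM against 24.6, 22.9 and 15.3 RPKM. Sb03g032795 and Sb03g032800 have no model between them, yet their levels part in roots: the first had 27.9 to 57.8 RPKM there and the second at most 0.559 RPKM. Both were highest in experiment 3 among the PEG-treated shoots, with 12.4 and 3.17 RPKM, and in experiment 1 among the NaOH-treated and H2O-treated shoots. The remaining pairs, Sb03g044240 with Sb03g044260, Sb09g017550 with Sb09g017570 and Sb09g027223 with Sb09g027260, have 1 to 4 models between them. In the last, Sb09g027223 had 13.8 to 15.8 RPKM and Sb09g027260 had 1.88 to 2.58 RPKM in PEG-treated shoots, against 6.97 to 8.32 and 0.0948 to 0.504 RPKM with H2O.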

How the data were processed

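RNA was sequenced from shoots and roots of 4 treatments, in 24 libraries. The authors took poly(A) RNA, aligned single reads of 50 bases without strand to build sbi1 with CASAVA 1.6 (its ELAND aligner), kept unique matches and removed organelle and repeat reads. The deposited count sums the bases aligned to each gene, and the deposited RPKM scales it by exon length and library. The deposited signal is the median depth of coverage over a gene. The authors' own tests were not used.

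Aligned bases were divided by 50 and rounded to reads. The main test was edgeR 4.0.16 in R 4.3.3 (quasi-likelihood, robust, TMM, all 24 libraries, 8 group means), with Benjamini-Hochberg adjustment over the 22667 genes that passed its filter on low counts. A call needed a log2 fold change of 1 or more, an adjusted p below 0.05 and a median depth of at least 2 in a group. The tests of a difference between effects had no depth minimum. DESeq2 1.42.0 and the other alternatives in the closing section were run as well. The script was tested on simulated data.

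The members, gene lists and tests were chosen with earlier results of these data known, and 2 genes were left out by the rule. Genes were named by rank of r, level in PEG-treated shoots, keyword class, closeness to the limit, size of the tissue difference, calls in the small comparisons and position next to another member. Some genes of that list stand only within ranges. Replicate numbers pair the samples because each marks 1 hydroponic experiment. The deviations of same-numbered shoots correlated at 0.33, 0.51 and 0.27 for PEG and H2O, and those of same-numbered roots at 0.01, 0.18 and 0.24. Promoter sequences were not used here.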

Additional observations from a re-analysis of the deposited data

Results flagged for a closer look

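The difference between the PEG effects in shoots and in roots passed the interaction test in 22 of the 145 genes tested. The rule chose genes with a high ratio in PEG-treated shoots and a small one in PEG-treated roots, so this count describes the choice and was not tested on other libraries. It rests on few libraries: it was 42 with the experiment number as a block, 2 without experiment 1, and 57 without the H2O-treated shoot library of experiment 2.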

How the results depend on the processing

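With the replicate block the count of genes called was 42 in place of 22 for the PEG effect in shoots against roots and 28 in place of 15 for PEG against ABA in shoots, and it moved no other count by over 1.5 times. DESeq2 gave 27 for PEG against ABA. Without a depth minimum 1 gene, Sb01g030440, was called in PEG-treated roots in place of none. Leaving out 1 experiment in all groups gave 20 to 60 calls for PEG in shoots (44 with all), 2 to 40 for shoots against roots and 0 to 18 for PEG against ABA. Leaving out 1 library, chosen after seeing the data except for the H2O-treated shoots of experiment 2, gave 31 to 69, 14 to 57 and 9 to 51, and the highest value each time came without that library. For NaOH-treated shoots against roots the count of 41 stayed between 37 and 48 under these omissions and was 58 without a depth minimum. ABA in shoots, ABA in roots and NaOH against H2O in either tissue gave 0 calls among the 145 under each alternative run. The membership itself moved more: of the 150, the rule kept 63 with a pseudocount of 0.1, 63 with 5, 72 with a limit of 0.75 and 94 with medians. It kept 27 to 86 without 1 experiment and 29 without the H2O-treated shoot library of experiment 2. On RPKM scaled by TMM factors it kept 106. The causes were not tested.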
